A study of Mus musculus with 12 samples.

Results

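The circadian clock genes described here are Clock, Arntl (the gene of BMAL1), Per1, Per2, Per3, Cry1, Cry2, Nr1d1, Nr1d2 and Dbp. They are the rows of the count table that carry these 10 symbols, out of 12637 genes in the table, and all 10 were found and tested. Polyadenylated RNA was sequenced on a BGISeq500 from mouse embryonic fibroblasts (MEFs), an immortalised connective tissue line with floxed alleles of Crebbp and Ep300 (Crebbp fl/fl; Ep300 fl/fl) and stable expression of Cre-ERT2, a recombinase that works once tamoxifen or its derivative is added. CBP and p300, the products of these genes, are related lysine acetyltransferases that serve as transcriptional coactivators. In the group called KO here they were deleted by 4-hydroxytamoxifen (4-OHT). The group called WT is wild type in the labels, and no source used here says whether it received 4-OHT. All cells grew in DMEM with 4.5 g/l glucose and 10% fetal bovine serum. Cells of each genotype received either doxycycline (Dox, 30 µg/ml over 24 hours) or the solvent DMSO, which made 4 groups (WT DMSO, WT Dox, KO DMSO and KO Dox) of 3 libraries each. Doxycycline is an antibiotic that also inhibits translation inside mitochondria. The labels do not tie replicates to separate cultures, so the spread behind each p-value is that between libraries and may be technical.

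The mammalian clock is a transcriptional feedback loop. CLOCK and BMAL1 bind as a pair to E-boxes and drive the Per, Cry, Nr1d and Dbp genes; PER and CRY proteins return to the nucleus and inhibit that pair, and the nuclear receptors REV-ERBα (Nr1d1) and REV-ERBβ (Nr1d2) repress Arntl through a response element that they share with the activating ROR receptors. DBP activates genes with D-boxes, among them some of the Per genes, and NFIL3 represses them. Fibroblasts in culture run this loop cell by cell, and a change of serum or a hormone aligns the cells. The labels give neither a harvest time nor a synchronising step, and each group was taken at a single time after treatment. A change in the level of a clock transcript and a change in the phase at which cells were taken therefore cannot be told apart in these data. In bulk RNA, fewer cells of a type and less RNA per cell cannot be told apart either.

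The promoter sequences show which of these elements each gene carries close to its start. In the RefSeq promoter table (GRCm38.p6, 250 bases before to 50 bases after a start, 300 bases in all) 9 of the 10 genes had a window, 13 windows in total; Per2 is not in the table. The motifs searched on both strands were the E-box CACGTG, the related E-prime-box CACGTT, the D-box TTATGNAA, the REV-ERB and ROR element TAGGTCA (RRE) and the cAMP response element TGACGTCA (CRE). The E-box lay in 2 of the 13 member windows (Per1 and Cry1), against 7.15% of all 32851 windows. An E-prime-box lay in 3 of the 13 (Cry1, Cry2 and Nr1d1), against 4.68%. A D-box lay in 2 (Per1 and Per3), against 3.38%, and an RRE in 1 (Arntl), against 2.61%. No CRE was found in the members' windows, against 1.79% of all windows, and the windows of Clock, Nr1d2 and Dbp held none of these letters. The stretches below carry the motif in capitals, are read 5′ to 3′ on the gene's strand, and show how alike the sites of different members are. An E-prime-box on the other strand appears as AACGTG. None of the members' sites overlapped another. Each distance counts from the start of the window that holds the site. Per1 has 2 windows. The one with its sites, chr11:69098699-69098998, lies inside the annotated span of the gene, which begins at chr11:69095217.
Cry1, E-prime-box and E-box with 13 bases between them, chr10:85185097-85185145, minus strand: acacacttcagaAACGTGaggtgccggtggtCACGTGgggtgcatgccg
Per1, E-box 166 bases before the start, chr11:69098771-69098800, plus strand: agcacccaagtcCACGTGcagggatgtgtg
Cry2, E-prime-box 166 bases before the start, chr2:92434218-92434247, minus strand: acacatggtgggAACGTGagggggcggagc
Nr1d1, E-prime-box 28 bases before the start, chr11:98775388-98775417, minus strand: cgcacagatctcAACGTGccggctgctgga
Per1, D-box 24 bases before the start, chr11:69098913-69098942, plus strand: cagggcctggcaTTATGCAAcccgcctccc
Per3, D-box 205 bases before the start, chr4:151044853-151044882, minus strand: ccgacccgcgcgTTATGTAAggtactcggg
Per3, D-box 158 bases before the start, chr4:151044806-151044835, minus strand: acccgcccgcggTTATGTAAcccccgccgt
Arntl, RRE 31 bases after the start, chr7:113207529-113207558, plus strand: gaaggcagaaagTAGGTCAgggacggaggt
A match of letters describes the window and is no evidence of binding in these cells.

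Each library held 44476039 to 52173143 gene counts. The 10 genes had between 125 counts (Dbp, in KO DMSO) and 6803 counts (Clock, in KO Dox) per library, so all were measured well above the counting limit. Levels are given as CPM, counts relative to library size, with TMM factors, on a scale of CPM of the libraries. Crebbp and Ep300 were detected throughout, at 65.8 to 67.8 and 192 to 200.4 CPM in WT DMSO and at 58.8 to 60.4 and 120.0 to 128 CPM in KO DMSO, and counts over a whole gene do not check the deletion of floxed exons. Of 12 fibroblast markers 11 are in the table (Lum is not listed), and their summed level was 14325 to 14417 CPM with DMSO and 14178 to 14633 with Dox among WT libraries, and 4020 to 4145 and 4604 to 4620 among KO libraries. Of 27 markers of macrophages, endothelium, epithelium, muscle, neural cells and adipocytes 20 are not listed, including all endothelial and epithelial ones. The 2 listed macrophage markers of 6 summed to 2.80 to 3.01 CPM with DMSO and 1.55 to 2.03 with Dox among WT libraries, and to 24.5 to 25.9 and 21.0 to 23.5 among KO libraries; nearly all of the KO level came from Cd68, a lysosomal protein gene, while Ptprc, Adgre1, Itgam and Tyrobp are not listed. The 3 listed neural markers of 4 summed to 54.7 to 57.0 CPM with DMSO and 49.0 to 51.8 with Dox in WT, and to 22.6 to 23.3 and 21.3 to 23.0 in KO. Fabp4, 1 of 3 adipocyte markers, had 42.6 to 44.8, 30.1 to 31.3, 0.354 to 0.429 and 0.334 to 0.375 CPM in the same group order, and Des, 1 of 4 muscle markers, 6.74 to 7.48, 5.15 to 5.61, 1.36 to 1.71 and 1.39 to 1.47. The part of these marker differences in the clock gene results between genotypes was not tested.

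Libraries also differed within a group. Unmapped reads made up 7.63% and 6.65% of all reads in KO DMSO replicates 1 and 2 and 1.85 to 2.09% elsewhere. The mean log2 CPM of 256 processed pseudogenes lay at -0.62 from the KO mean in KO DMSO replicate 1, against 0.10 to 0.15 in the other 5 KO libraries. It lay at -0.35 to -0.39 from the WT mean in WT DMSO and at 0.31 to 0.39 in WT Dox, so within WT this difference and doxycycline cannot be told apart. Values from a fit with a term for the 4 libraries with low pseudogenes (WT DMSO replicates 1 to 3 and KO DMSO replicate 1) are given beside the counts that they move. Within WT this term coincides with the treatment, so its size comes only from KO DMSO replicate 1 against replicates 2 and 3. Such a fit cannot separate the pseudogene difference from doxycycline in WT.

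In WT cells Arntl, Per3, Nr1d2, Cry1, Nr1d1 and Clock were higher with doxycycline than with DMSO, and Per1 and Dbp were lower. This comparison coincides with the pseudogene difference. Clock, Nr1d1 and Dbp were not called with the low-pseudogene term. The largest change was that of Nr1d2, at a log2 fold change of 0.41, and no clock gene changed 2-fold. Thus 6 of the 10 genes rose, against 23.9% of all genes tested, and 2 fell, against 29.2%, at an adjusted p under 0.05 in edgeR. The 8 called genes compare with 53.1% of all genes called in either direction, and the groups did not overlap for 8 of the 10 genes, against 57.5% of all genes. A change of at least 2-fold was called for 1.6% of all genes. The median log2 fold change of the 10 genes was 0.17, against -0.02 over all genes.

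Among the activators, Clock encodes the partner of BMAL1 that has acetyltransferase activity of its own. Its level was 61.5, 60.5 and 62.2 CPM in the 3 WT DMSO libraries and 69.9, 64.9 and 63.4 CPM in WT Dox. All 3 WT Dox libraries were higher, replicate 1 by the most, and the log2 fold change was 0.11 ± 0.0324 (SE, n = 3 and 3; adjusted p = 0.0085, edgeR). This call rested on WT Dox replicate 1: without it the value was 0.06 with an adjusted p of 0.071. Arntl had 15.9, 15.3 and 15.9 CPM with DMSO and 20.9, 20.2 and 19.8 CPM with Dox. The groups were far apart relative to their spread, with a log2 fold change of 0.37 ± 0.0436 (adjusted p = 2e-07).

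The Per genes moved in different directions. Per1, an inhibitor of CLOCK and BMAL1 that also responds at once to serum and cAMP, had 32.0, 31.8 and 32.3 CPM in WT DMSO and 27.0, 28.3 and 27.5 CPM in WT Dox. It fell by 0.21 on the log2 scale (SE 0.0348; adjusted p = 1.6e-05). Per2, which bridges CRY and CLOCK with BMAL1 in the repressing complex, had 12.1, 11.0 and 12.7 CPM with DMSO and 12.8, 12.2 and 13.6 CPM with Dox. These groups overlapped and Per2 was not called, at 0.11 ± 0.0585 (adjusted p = 0.12; 95% interval -0.00 to 0.23). Per3, a paralog that is dispensable for rhythm in mice, had 18.5, 18.8 and 19.0 CPM with DMSO and 25.2, 23.8 and 24.3 CPM with Dox. Per3 was higher in each WT Dox library than in any WT DMSO library, at 0.38 ± 0.0408 (adjusted p = 4.1e-08).

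The cryptochromes are the direct inhibitors of CLOCK and BMAL1. Cry1 had 16.5, 15.2 and 15.2 CPM in WT DMSO and 18.6, 19.0 and 18.7 CPM in WT Dox, and it rose by 0.26 ± 0.0433 (adjusted p = 1.9e-05). Cry2 had 23.1, 23.3 and 21.5 CPM with DMSO and 22.5, 23.5 and 24.0 CPM with Dox. The Cry2 groups overlapped and the difference of 0.04 ± 0.0439 was not called (adjusted p = 0.42; 95% interval -0.04 to 0.13).

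Both REV-ERB receptor genes rose. Nr1d1 had 22.1, 21.8 and 20.1 CPM in WT DMSO and 23.5, 25.4 and 26.2 CPM in WT Dox, and rose by 0.23 ± 0.0485 (adjusted p = 3.2e-04). Nr1d2 had 34.9, 34.2 and 36.1 CPM with DMSO and 48.8, 44.3 and 46.9 CPM with Dox. The lowest WT Dox library lay well above the highest WT DMSO library, with a log2 fold change of 0.41 ± 0.0346 (adjusted p = 7.7e-10). Dbp, a PAR bZIP output factor that E-boxes drive, had 8.75, 9.84 and 8.88 CPM with DMSO and 6.94, 7.82 and 8.03 CPM with Dox, and it fell by 0.27 on the log2 scale (SE 0.0730; adjusted p = 0.0035).

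With the term for the low-pseudogene libraries, whose size rests on KO DMSO replicate 1, 5 of the 10 genes were called in WT. Nr1d2 then stood at 0.40, Per3 at 0.32, Arntl at 0.27, Cry1 at 0.27 and Per1 at -0.17. Clock (0.08, adjusted p = 0.31) and Nr1d1 (0.27, adjusted p = 0.073) were no longer called. Dbp stood at 0.03 (adjusted p = 0.94), so its fall did not hold in that fit.

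**Figure D1:**
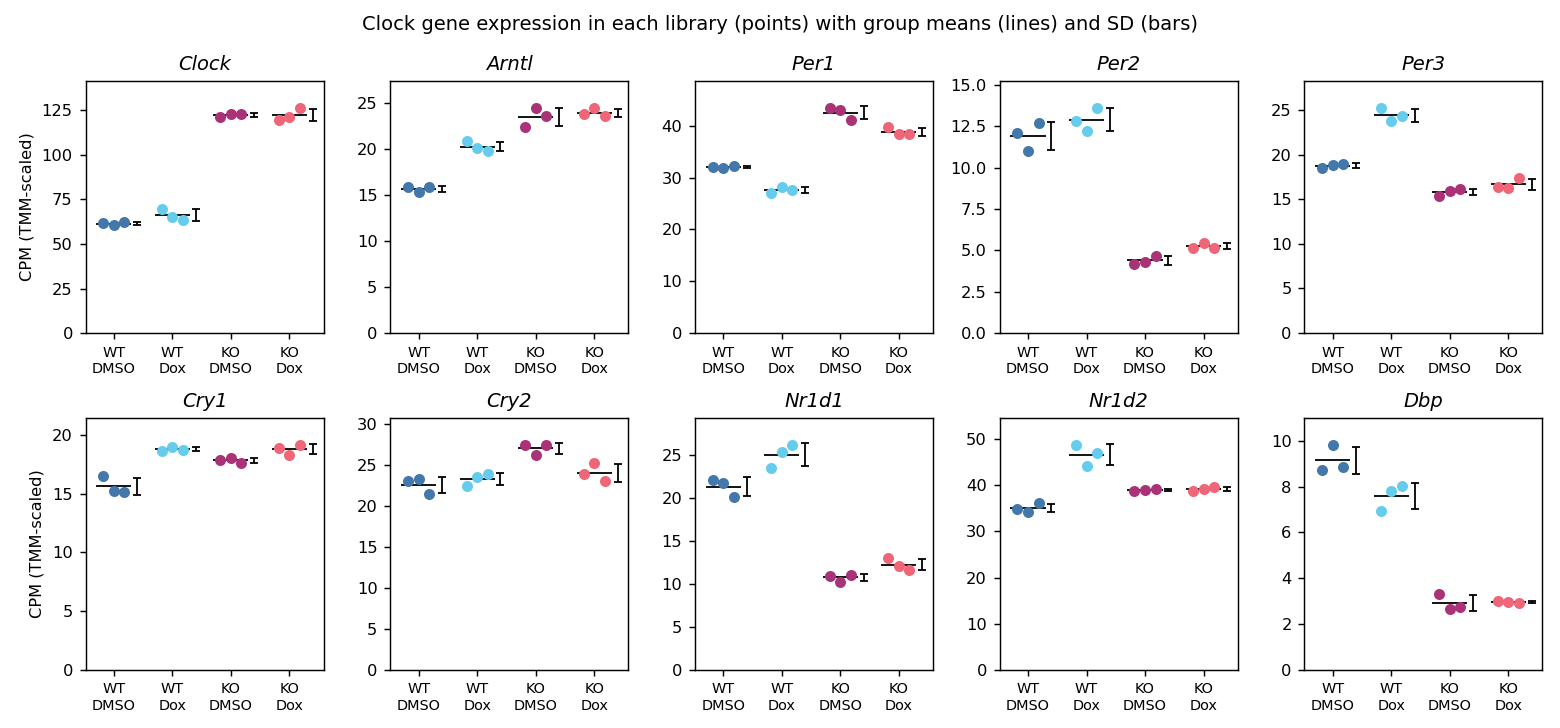
Level of the 10 clock genes (vertical axis, TMM-scaled CPM) in each of the 12 libraries, by group; points are libraries and lines with bars are group means and SD (n = 3). Clock stands at 60.5 to 62.2 CPM in WT DMSO and 121 to 123 CPM in KO DMSO, Per2, Nr1d1 and Dbp are lower in KO, and Arntl, Per3 and Nr1d2 are higher with Dox in WT and were not called in KO.

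With doxycycline fewer clock genes were called in KO cells than in WT, and so were fewer of all genes, 21.7% against 53.1%. Per2 and Nr1d1 rose, Per1 and Cry2 fell, and the other 6 genes were not called. The 2 that rose compare with 11.6% of all genes called higher, the 2 that fell with 10.1% called lower, and the 4 together with 21.7% called in either direction. No clock gene changed 2-fold, against 0.237% of all genes. The groups did not overlap for 6 of the 10 genes, against 38.3% of all genes, and the median log2 fold change was 0.03, against -0.00 over all genes.

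Clock had 121, 123 and 123 CPM in KO DMSO and 119, 122 and 126 CPM in KO Dox, and the means were alike, with a 95% interval of -0.06 to 0.06 around a log2 fold change of 0.00. Arntl had 22.5, 24.5 and 23.6 CPM with DMSO and 23.8, 24.5 and 23.7 CPM with Dox, a difference of 0.03 ± 0.0394 (adjusted p = 0.64). Both pairs of groups overlapped. Per1 had 43.4, 43.0 and 41.1 CPM with DMSO and 39.7, 38.4 and 38.4 CPM with Dox, and it fell by 0.13 on the log2 scale (SE 0.0315; adjusted p = 0.0043). Per2 had 4.19, 4.29 and 4.68 CPM with DMSO and 5.17, 5.45 and 5.16 CPM with Dox, and it rose by 0.26 ± 0.0796 (adjusted p = 0.021). The Per2 groups were separate although the gene had only 201 to 291 counts per library. Per3 had 15.4, 15.9 and 16.1 CPM with DMSO and 16.3, 16.3 and 17.4 CPM with Dox. All 3 Dox values lay above the DMSO values, but the difference of 0.08 ± 0.0436 was not called (adjusted p = 0.22).

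Cry1 had 17.9, 18.1 and 17.6 CPM in KO DMSO and 18.8, 18.3 and 19.2 CPM in KO Dox, at 0.07 ± 0.0417 (adjusted p = 0.23). Cry2 had 27.5, 26.3 and 27.5 CPM with DMSO and 23.9, 25.3 and 23.0 CPM with Dox, and it fell by 0.17 on the log2 scale (SE 0.0420; adjusted p = 0.0047). The Cry2 groups did not overlap, and the smallest gap was between KO DMSO replicate 2 and KO Dox replicate 2. Nr1d1 had 11.0, 10.3 and 11.1 CPM with DMSO and 13.0, 12.1 and 11.6 CPM with Dox, and it rose by 0.18 ± 0.0592 (adjusted p = 0.028). Nr1d2 had 38.9, 38.9 and 39.3 CPM with DMSO and 38.8, 39.3 and 39.6 CPM with Dox, at 0.01 ± 0.0344 (adjusted p = 0.91; 95% interval -0.06 to 0.07). Dbp had 3.31, 2.67 and 2.72 CPM with DMSO and 3.02, 2.96 and 2.90 CPM with Dox, at 0.03 ± 0.104 (adjusted p = 0.88). The Nr1d2 and Dbp groups overlapped, and KO DMSO replicate 1 held the highest Dbp value of the 6 KO libraries.

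The calls of Per2 and Nr1d1 in KO were not firm. Without KO DMSO replicate 2, and likewise without KO Dox replicate 2, both were lost and 2 of the 10 genes were called. Per2 was also lost without KO DMSO replicate 1, at 0.24 (adjusted p = 0.080), and Nr1d1 without KO Dox replicate 1, at 0.14 (adjusted p = 0.15). With the term for the low-pseudogene libraries 2 genes were called, Per1 and Cry2, while Per2 stood at 0.23 (adjusted p = 0.096) and Nr1d1 at 0.20 (adjusted p = 0.051).

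**Figure D2:**
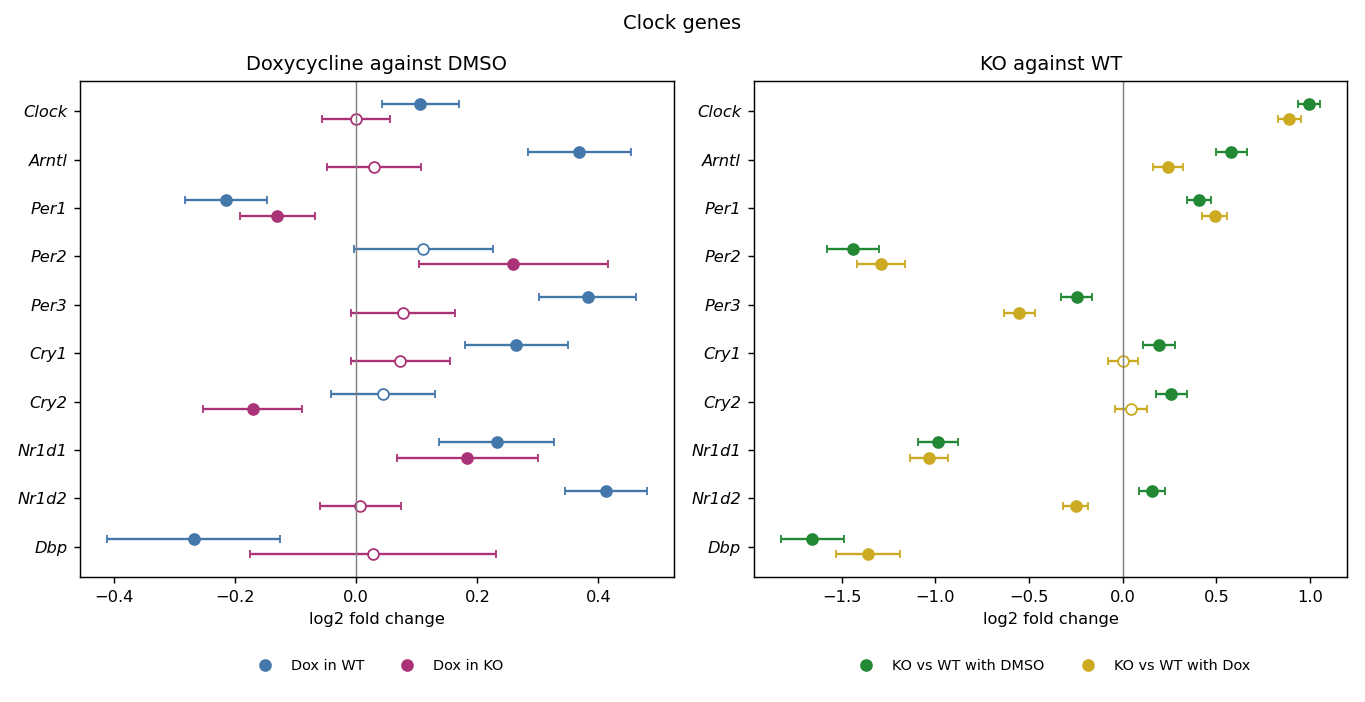
Log2 fold change of each clock gene with doxycycline in WT and in KO and between KO and WT (horizontal axis, log2 scale; points are estimates from 3 against 3 libraries, bars 95% intervals, filled points called at an adjusted p under 0.05). Nr1d2 stands at 0.41 in WT and 0.01 in KO with doxycycline, and Dbp and Per2 at -1.66 and -1.44 between KO and WT with DMSO.

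The response of 5 clock genes differed between the genotypes when the difference itself was tested. Nr1d2, Arntl, Per3, Cry2 and Cry1 all responded less or more negatively in KO than in WT, against 14.3% of all genes called in that direction. No clock gene was called the other way, against 18.2% of all genes, and 32.5% of all genes were called in either direction. The median difference of the log2 responses, KO minus WT, was -0.15 for the 10 genes and 0.01 for all genes. Within WT doxycycline coincides with the pseudogene difference. A genotype difference in response and that library difference therefore cannot be told apart here. With the low-pseudogene term, which rests on KO DMSO replicate 1, 4 clock genes were called, all in the same direction.

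Nr1d2 had the largest difference, at -0.40 ± 0.0488 (adjusted p = 7.8e-07, edgeR), with a rise of 0.41 in WT and 0.01 in KO. Arntl followed at -0.34 ± 0.0588 (adjusted p = 9.4e-05) and Per3 at -0.30 ± 0.0597 (adjusted p = 3.7e-04). For these 3 genes the rise was seen in WT and none was called in KO. Cry2 differed by -0.21 ± 0.0607 (adjusted p = 0.0086), from 0.04 in WT, which was not called, to a fall of 0.17 in KO. Cry1 differed by -0.19 ± 0.0601 (adjusted p = 0.017), and this call was lost with the low-pseudogene term (adjusted p = 0.068) and in DESeq2 (adjusted p = 0.065). The differences of Clock (-0.11, adjusted p = 0.065), Per1 (0.08, adjusted p = 0.18), Per2 (0.15, adjusted p = 0.27), Nr1d1 (-0.05, adjusted p = 0.67) and Dbp (0.30, adjusted p = 0.078) were not called. The Dbp difference ran from 0.11 to 0.39 over 20 other settings. Dbp was called in only 1 of these, without KO DMSO replicate 1, at 0.39 (adjusted p = 0.025). Clock was called, at -0.12, without that library (adjusted p = 0.041), and also at -0.13 without WT Dox replicate 3, at -0.14 without KO Dox replicate 3 and at -0.12 when TMM scaling was left out (adjusted p = 0.025, 0.014 and 0.033).

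With DMSO, KO cells had 1.99-fold more Clock transcript than WT cells, 2.71-fold less Per2, 1.98-fold less Nr1d1 and 3.15-fold less Dbp. Arntl, Per1, Cry2, Cry1 and Nr1d2 were also higher in KO, and Per3 was lower. The median size of the log2 difference over the 10 genes was 0.49, against 0.25 for doxycycline in WT and 0.08 in KO, and against 0.56 over all genes for KO and WT. All 10 genes were thus called, 6 higher and 4 lower, against 89.4% of all genes called in either direction, 45.1% higher and 44.3% lower. No library of KO DMSO overlapped WT DMSO for any of the 10 genes, against 89.8% of all genes. The clock genes therefore stand at the background in how many changed, and the median log2 fold change was 0.17, against 0.02 over all genes. At a fold of at least 2, Per2 and Dbp were called lower, against 16.7% of all genes, and none higher, against 10.8%; Nr1d1 and Clock lay just under that fold.

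Clock was higher in KO by 1.99-fold, on the log2 scale 1.00 ± 0.0307 (adjusted p = 7.8e-20, edgeR). Arntl was higher by 1.50-fold, at 0.58 ± 0.0425 (adjusted p = 3.9e-12). Both activator genes thus had more transcript in KO, with no overlap between the groups. The repressors split, with Per1 higher by 1.33-fold (0.41 ± 0.0327, adjusted p = 2.3e-11) and Per2 lower by 2.71-fold (-1.44 ± 0.0700, adjusted p = 9.4e-16). Per3 stood at -0.25 ± 0.0434 (adjusted p = 1.2e-05), Cry1 at 0.19 ± 0.0435 (adjusted p = 2.5e-04) and Cry2 at 0.26 ± 0.0429 (adjusted p = 4.8e-06).

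Nr1d1 was lower in KO by 1.98-fold, at -0.98 ± 0.0550 (adjusted p = 1.6e-14), and its paralog Nr1d2 was slightly higher, at 0.15 ± 0.0353 (adjusted p = 2.8e-04). Dbp was lower by 3.15-fold, at -1.66 ± 0.0861 (adjusted p = 3.7e-15). A pair of these genes share exon sequence with a gene on the opposite strand, and the strand used in counting is not given. Of the Nr1d1 exons 8.55% (263 bases) overlap Thra, the gene of thyroid hormone receptor α, which had 166, 162 and 158 CPM in WT DMSO and 29.5, 28.8 and 26.5 CPM in KO DMSO, a log2 fold change of -2.52. Of the Dbp exons 18% (539 bases) overlap Sphk2, a sphingosine kinase gene, which had 42.1, 42.3 and 39.5 CPM in WT DMSO and 55.5, 53.2 and 55.6 CPM in KO DMSO, at 0.41. Sphk2 moved opposite to Dbp, and Thra moved the same way as Nr1d1 and by more. Reads left out of the gene counts as ambiguous made up 4.86 to 5.29% of all reads. The part of shared reads in the Nr1d1 and Dbp differences was not tested. Cry2 (295 bases, 4.67% of its exons) and Arntl (33 bases) overlap opposite-strand genes that the table does not list.

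With doxycycline, KO and WT differed in 8 of the 10 genes, 3 higher and 5 lower. The background was 89.9% in either direction, 45.1% higher and 44.8% lower. The groups did not overlap for the same number, 8 of 10, against 89.7% of all genes. Clock (0.89 ± 0.0304, adjusted p = 6.1e-19), Per1 (0.49 ± 0.0335, adjusted p = 9e-13) and Arntl (0.24 ± 0.0404, adjusted p = 6.1e-06) were higher in KO. Dbp (-1.36 ± 0.0871, adjusted p = 2.6e-13), Per2 (-1.29 ± 0.0661, adjusted p = 2.7e-15), Nr1d1 (-1.03 ± 0.0521, adjusted p = 2e-15) and Per3 (-0.55 ± 0.0410, adjusted p = 5e-12) were lower. Dbp, Per2 and Nr1d1 passed a fold of at least 2, against 16.6% of all genes lower by that fold, and none was higher by it, against 10.8%.

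Nr1d2 changed sides between the treatments. It was higher in KO with DMSO and lower in KO with Dox, at -0.25 ± 0.0337 (adjusted p = 2.2e-07), with 44.3 to 48.8 CPM in WT Dox and 38.8 to 39.6 CPM in KO Dox. Cry1 (0.00, adjusted p = 0.99; 95% interval -0.08 to 0.08) and Cry2 (0.05, adjusted p = 0.32; 95% interval -0.04 to 0.13) overlapped between the genotypes with Dox. Without TMM scaling the median of all genes moved to 0.17 with DMSO and 0.14 with Dox, and Cry1 at 0.13 and Cry2 at 0.18 were then called higher in KO with Dox (adjusted p = 0.0047 and 5.3e-04). The comparisons share libraries with each other, so their values are not independent.

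The order of the clock genes by level changed with genotype. Levels between genes are compared as CPM per kilobase of exon. The length takes all annotated exons of a gene rather than the transcripts expressed, so places between genes depend on the annotation. In WT DMSO the highest were Nr1d1 at 6.93 and Nr1d2 at 6.48, whose libraries overlapped, then Per1 at 5.69, Cry1 at 4.68, Clock at 4.47, Cry2 at 3.58 and Dbp at 3.06. Arntl at 2.09, Per2 at 2.04 and Per3 at 1.95 stood lowest. Arntl overlapped Per2 and Per2 overlapped Per3, while the libraries of Arntl all lay above those of Per3. In KO DMSO Clock came first at 8.92 CPM per kilobase, ahead of Per1 at 7.55, Nr1d2 at 7.22, Cry1 at 5.35, Cry2 at 4.29, Nr1d1 at 3.50 and Arntl at 3.13. Per3 at 1.65, Dbp at 0.969 and Per2 at 0.749 were lowest there, and no neighbours in this order overlapped. Clock therefore rose from the fifth place to the first, and Nr1d1 moved from the first to the sixth.

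In WT Dox, Nr1d2 at 8.63 and Nr1d1 at 8.14 CPM per kilobase led and overlapped, followed by Cry1 at 5.62. Per1 at 4.90 and Clock at 4.81 overlapped each other, and Cry2 at 3.69 and Arntl at 2.70 came next. Per3 and Dbp, both at 2.54, overlapped, and Per2 at 2.20 came last but overlapped Dbp. In KO Dox the order was Clock at 8.92, Nr1d2 at 7.25, Per1 at 6.89, Cry1 at 5.62, Nr1d1 at 3.98, Cry2 at 3.81, Arntl at 3.19, Per3 at 1.74, Dbp at 0.989 and Per2 at 0.898. Nr1d1 and Cry2 overlapped in KO Dox. The leading gene was thus Clock in both KO groups and a REV-ERB gene in both WT groups.

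The shares of the Per genes in their summed level differed between genotypes without overlap of libraries. Per1, Per2 and Per3 summed to 9.68 ± 0.194 CPM per kilobase in WT DMSO, 9.65 ± 0.0870 in WT Dox, 9.94 ± 0.142 in KO DMSO and 9.53 ± 0.0947 in KO Dox (SD, n = 3 each; no test was run on sums or shares). Per1 made up 58.8% ± 0.746 of that sum in WT DMSO and 75.9% ± 1.13 in KO DMSO. Per2 made up 21.0% ± 1.10 and 7.54% ± 0.555, and Per3 20.2% ± 0.393 and 16.6% ± 0.588. With Dox the Per3 share was 26.4% ± 0.823 in WT and 18.2% ± 0.731 in KO. The 2 cryptochromes summed to 8.26 ± 0.317 CPM per kilobase in WT DMSO and 9.63 ± 0.0616 in KO DMSO. The REV-ERB genes summed to 13.4 ± 0.224 in WT DMSO, 16.8 ± 0.381 in WT Dox, 10.7 ± 0.163 in KO DMSO and 11.2 ± 0.145 in KO Dox, and the Nr1d1 share was 51.6% ± 1.87 in WT DMSO and 32.6% ± 0.843 in KO DMSO.

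Ratios of counts within a library do not depend on scaling between libraries. Per1 had 2.69 ± 0.178 counts per Per2 count in WT DMSO, 2.15 ± 0.149 in WT Dox, 9.72 ± 0.827 in KO DMSO and 7.39 ± 0.320 in KO Dox (SD, n = 3 each). This ratio was thus 3.60-fold higher in KO with DMSO and 3.44-fold higher with Dox, and it was lower with Dox in both genotypes, with no overlap in any of these comparisons. Per3 had 1.58 ± 0.114 counts per Per2 count in WT DMSO, 1.90 ± 0.0995 in WT Dox, 3.61 ± 0.145 in KO DMSO and 3.18 ± 0.189 in KO Dox, higher with Dox in WT and lower with Dox in KO. The Nr1d1 to Nr1d2 ratio was 0.609 ± 0.0446, 0.538 ± 0.0491, 0.276 ± 0.0105 and 0.312 ± 0.0205 in the same order, and its 2 WT groups overlapped. Arntl to Clock was 0.256 ± 0.00255, 0.307 ± 0.00768, 0.192 ± 0.00671 and 0.196 ± 0.00762, so Clock gained on Arntl in KO, and the 2 KO groups overlapped.

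The cryptochrome ratio followed doxycycline in both genotypes. Cry1 had 0.691 ± 0.0322 counts per Cry2 count in WT DMSO and 0.805 ± 0.0230 in WT Dox, and 0.660 ± 0.0244 in KO DMSO and 0.781 ± 0.0544 in KO Dox. The log2 ratio was higher with Dox by 0.22 in WT and by 0.24 in KO without overlap, while KO and WT overlapped with either treatment. Of 20 comparisons of 5 ratios, 16 had groups that did not overlap and reached a two-sided exact permutation p of 0.1, the smallest that 3 against 3 libraries allow, which is 0.125 after Benjamini-Hochberg adjustment. The other 4 had exact permutation p-values of 0.2 to 0.7 before adjustment. The share of other gene pairs whose ratios do not overlap was not determined, so the count of 16 has no background beside it.

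**Figure D3:**
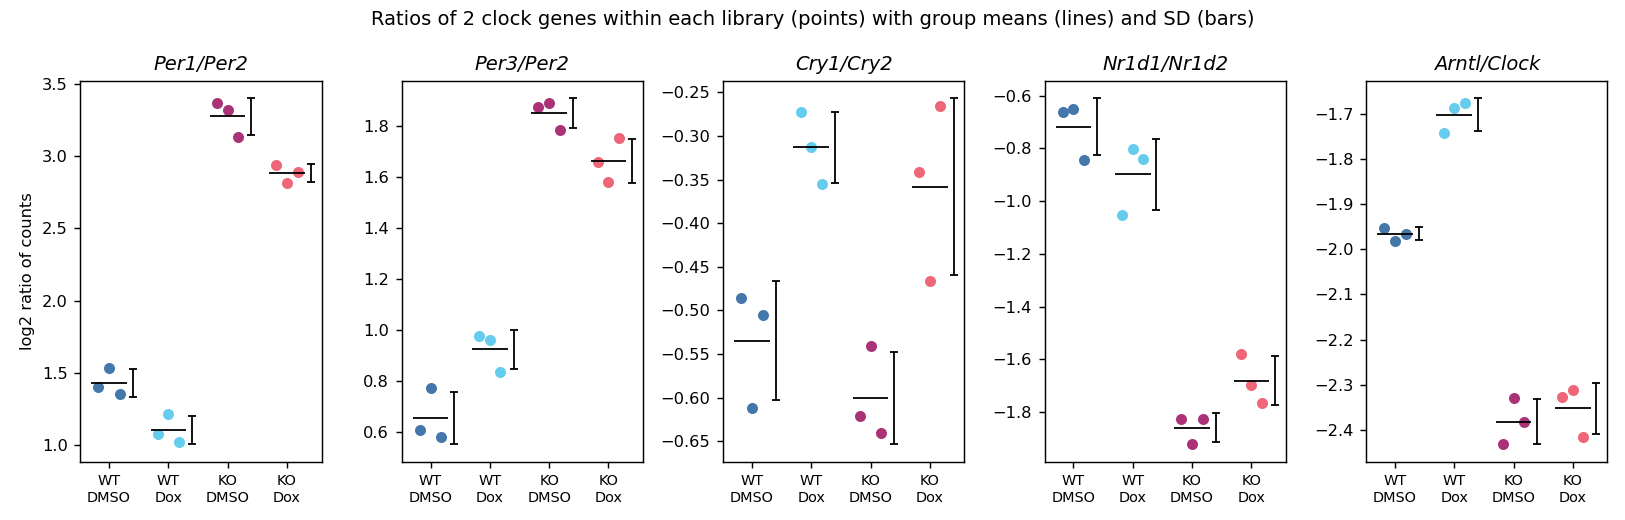
Log2 ratio of counts of 2 related clock genes within each library (vertical axis), by group; points are libraries, lines with bars are group means and SD (n = 3). The Per1 to Per2 ratio is high in both KO groups, and the Cry1 to Cry2 ratio is higher with Dox in WT and in KO.

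Among further transcription factors of the loop, Ciart, Bhlhe40 and Bhlhe41 rose with Dox in WT and Rora was higher in KO. Of 11 such regulators 7 are in the table. With Dox in WT 3 of the 7 rose and 2 fell, against 23.9% and 29.2% of all genes, and in KO 2 rose and 2 fell, against 11.6% and 10.1%. Their median log2 fold changes were 0.02 in both, beside -0.02 and -0.00 over all genes. Bhlhe40 and Bhlhe41 encode DEC1 and DEC2, repressors that compete for E-boxes. Bhlhe40 had 45.4, 44.8 and 44.4 CPM in WT DMSO, 57.8, 58.2 and 56.2 in WT Dox, 90.0, 89.0 and 90.0 in KO DMSO and 145, 144 and 143 in KO Dox. Its response was larger in KO, with log2 fold changes of 0.36 ± 0.0267 in WT and 0.69 ± 0.0228 in KO, and the difference was called at 0.33 ± 0.0351 (adjusted p = 1.2e-07). That is opposite in sign to the 5 clock genes whose response differed.

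Ciart encodes CHRONO, a repressor of CLOCK and BMAL1, and its promoter window holds 3 E-boxes. The stretch with those at 58 and 44 bases before the start, which have 8 bases between them, is shown because the gene had the largest response to Dox in WT among the 10 clock genes and the 7 further regulators. Windows of Bhlhe41 and Tef also held an E-box, and Tef was not called with Dox in WT, at 0.02. Of the clock genes with an E-box, Cry1 rose and Per1 fell. A part of the E-boxes in these responses was not tested.
Ciart, E-boxes in capitals, chr3:95882255-95882298 (GRCm38.p6), minus strand: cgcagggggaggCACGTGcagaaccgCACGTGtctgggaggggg
Ciart had 6.17, 4.96 and 6.30 CPM in WT DMSO, 9.90, 11.0 and 10.3 in WT Dox, 6.55, 6.64 and 6.31 in KO DMSO and 8.08, 7.83 and 8.30 in KO Dox. It rose by 0.84 ± 0.0728 in WT and 0.31 ± 0.0730 in KO, and the response was smaller in KO by -0.52 ± 0.104 (adjusted p = 4e-04). Bhlhe41 rose in WT by 0.38 ± 0.0708 and stood at -0.03 in KO (adjusted p = 0.83), a difference of -0.41 ± 0.104 (adjusted p = 0.0038). Bhlhe40, Ciart and Bhlhe41 were also called in WT with the low-pseudogene term, at 0.36, 0.86 and 0.53. That term rests on KO DMSO replicate 1 and does not separate the pseudogene difference from doxycycline in WT.

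Rora, the gene of the receptor that activates Arntl through the RRE, was higher in KO with DMSO by 1.08 ± 0.0361 (adjusted p = 4e-19), at 24.8 to 26.6 CPM in WT DMSO and 53.9 to 54.6 CPM in KO DMSO. Nfil3, the D-box repressor, stood lower in KO, at -0.69 (adjusted p = 7.5e-16), and Tef, a D-box activator like Dbp, was higher by 0.35. Between KO and WT 3 of the 7 regulators were higher and 1 lower with DMSO (45.1% and 44.3% of all genes), and 4 were higher and 3 lower with Dox (45.1% and 44.8%), with median log2 fold changes of 0.16 and 0.35. The small Dox calls of Nfil3 in WT (-0.08, adjusted p = 0.034) and of Rora in KO (-0.09, adjusted p = 0.049) were each lost in 12 of 21 other settings. Arntl2, a paralog of Arntl, fell with Dox in WT (-0.23, adjusted p = 0.0091), was not called in KO at 0.09, and lost its WT call with the low-pseudogene term, at -0.12.

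**Figure D4:**
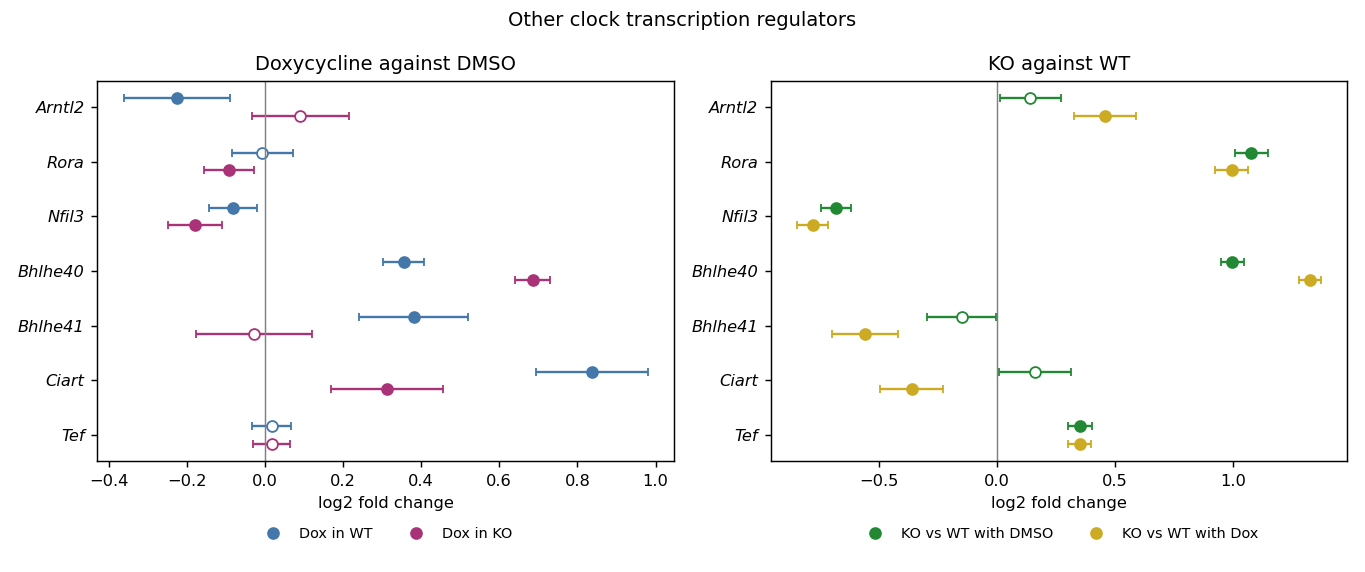
Log2 fold change of the 7 further clock regulators with doxycycline in WT and in KO and between KO and WT (horizontal axis, log2 scale; points are estimates from 3 against 3 libraries, bars 95% intervals, filled points called at an adjusted p under 0.05). Ciart stands at 0.84 in WT and 0.31 in KO with doxycycline, Bhlhe40 at 0.36 and 0.69, and Rora at 1.08 between KO and WT with DMSO.

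Most measured genes that act on clock proteins after translation were higher in KO. Of 20 kinases, ubiquitin ligases and phosphatases 19 are in the table, and with DMSO 14 were higher in KO and 3 lower, against 45.1% and 44.3% of all genes. Their median log2 fold change was 0.30, against 0.02 over all genes. Csnk1e, the gene of a casein kinase that phosphorylates PER proteins, was higher by 0.45 ± 0.0217. With Dox 3 of the 19 rose and 5 fell in WT, against 23.9% and 29.2% of all genes, and 1 rose and 1 fell in KO, against 11.6% and 10.1%. Siah2, a ubiquitin ligase that acts on REV-ERBα, rose in WT by 0.71 ± 0.0481, and Usp2, a deubiquitinase of clock proteins, fell by 0.30 on the log2 scale.

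All 22 chromatin and RNA-binding partners of clock proteins are in the table, and with DMSO 9 were higher in KO and 11 lower, with a median of -0.10. These counts lie near the 45.1% and 44.3% of all genes, and the 11 include the targeted genes Crebbp (-0.16) and Ep300 (-0.67). Kat2b, the acetyltransferase PCAF, was higher by 2.23 ± 0.0300, Tbl1xr1, a subunit of the NCoR corepressor complex, lower at -2.74 ± 0.0394, and Ezh2, a histone methyltransferase, lower at -1.43 ± 0.0277. With Dox 4 of the 22 rose and 8 fell in WT, against 23.9% and 29.2% of all genes, and 2 rose and 4 fell in KO, against 11.6% and 10.1%.

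Of 25 clock-controlled output genes 19 are in the table. With DMSO 6 were higher in KO and 13 lower, against 45.1% and 44.3% of all genes, with a median of -0.33; Ccnd1 (cyclin D1) stood at -4.54 and Myc at -3.17. With Dox 7 of the 19 rose and 4 fell in WT (23.9% and 29.2% of all genes) and 8 rose and 2 fell in KO (11.6% and 10.1%), with medians of 0.02 and 0.06. Klf10, a zinc-finger repressor, rose by 0.72 ± 0.0439 in WT and 1.11 ± 0.0491 in KO. A list of 21 genes held genes that CREB or serum induces at once together with regulators of these responses (CREB1, the CRTC coactivators, SRF and the MRTF coactivators). Of these 20 are in the table, and with DMSO 16 were higher in KO and 4 lower, against 45.1% and 44.3% of all genes, with a median of 0.57. Egr1 stood at 3.81, Nr4a1 at 3.42 and Atf3 at 4.84, while Per1, which such stimuli also induce, stood at 0.41. With Dox 4 of the 20 rose and 9 fell in WT (23.9% and 29.2% of all genes) and 3 rose and 8 fell in KO (11.6% and 10.1%), with medians of -0.05 and -0.01. Klf4 rose by 1.13 ± 0.0572 in WT and Dusp1 fell in WT by 0.50 and in KO by 0.25 on the log2 scale.

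Genes outside the clock with the most similar profiles were sought among 9552 genes by the root mean square difference of log2 CPM over the 12 libraries, each gene centred on its own mean. Pim3, itself in the list of output genes, was nearest to Per1 at 0.0275. Wee1, an output gene that encodes a cell-cycle kinase, was the second nearest to Per2, at 0.0842, after Nup37 at 0.0744. Other nearest genes were Sqstm1 for Arntl (0.0525), Adpgk for Per3 (0.0380), Polr3e for Cry1 (0.0404), Ndor1 for Cry2 (0.0384), Rpl35 for Nr1d1 (0.0527), Sclt1 for Nr1d2 (0.0501) and Sapcd2 for Dbp (0.0657). The first principal component, which split KO from WT, carried 95.0% of the variance between libraries, so such a match mainly describes a like difference between the genotypes.

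The 10 genes lie on 8 chromosomes of GRCm38, with positions from GENCODE M21. Clock (ENSMUSG00000029238) spans chr5:76209868-76304792, Arntl (ENSMUSG00000055116) chr7:113207465-113314126, Per1 (ENSMUSG00000020893) chr11:69095217-69109960, Per2 (ENSMUSG00000055866) chr1:91415982-91459324 and Per3 (ENSMUSG00000028957) chr4:151003652-151044665. Cry1 (ENSMUSG00000020038) spans chr10:85131700-85185064, Cry2 (ENSMUSG00000068742) chr2:92403646-92434043, Nr1d1 (ENSMUSG00000020889) chr11:98767932-98775333, Nr1d2 (ENSMUSG00000021775) chr14:18204054-18239127 and Dbp (ENSMUSG00000059824) chr7:45705088-45710203. Arntl and Dbp share chromosome 7 and Per1 and Nr1d1 chromosome 11, at distant positions.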

How the data were processed

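The members and the gene lists were chosen with earlier results of these data known. The authors deposited raw read counts per gene for 12 libraries. The submitters' processing notes name STAR 2.6.0a, HTSeq 0.10.0 and build GRCm38.p6, without roles or the strand of counting. The 4 rows that total unassigned reads, 17.4 to 22.9% of all reads, stayed out of library sizes and tests. Gene counts per library ran from 44476039 to 52173143.

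All 12 libraries entered 1 fit of 4 group means in edgeR 4.0.16 (R 4.3.3), tested by the quasi-likelihood F test after TMM scaling and robust estimation of dispersions. The low-count filter removed no gene. P-values were adjusted by Benjamini-Hochberg over 12637 genes, and genes under 0.05 were called. The SE is the log2 fold change divided by the square root of F, and intervals are 1.96 SE on each side. Log2 CPM for profiles used a prior count of 2. Exon lengths and overlaps came from GENCODE M21, in which 12634 of the gene identifiers were found. All 10 members, all further regulators, genes that overlap a member, and per list and contrast up to 3 called genes of smallest p, up to 2 of the highest uncalled and the nearest profiles could be named. Same-numbered replicates had correlated deviations over 0.1 in 1 of 18 pairs, so numbers were not taken to pair libraries. No replicate pair was equal within sampling noise. Alternatives were median-ratio scaling, no TMM, a filter of 1 CPM in 6 libraries, no filter, a replicate block, a term for the low-pseudogene libraries, the groups compared alone, DESeq2 1.42.0, limma-voom (limma 3.58.1), a fold of at least 2, and each library left out. The test was checked on simulated data. Some results are not reported here.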

Additional observations from a re-analysis of the deposited data

Results flagged for a closer look

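The response to doxycycline differed between WT and KO, by the test of the difference itself, for 5 clock genes. The difference of log2 fold changes, KO minus WT, was -0.40 for Nr1d2, -0.34 for Arntl, -0.30 for Per3, -0.21 for Cry2 and -0.19 for Cry1 (n = 3 libraries per group; adjusted p = 7.8e-07, 9.4e-05, 3.7e-04, 0.0086 and 0.017, edgeR). In WT all 3 Dox libraries were higher than every DMSO library for Nr1d2, Arntl, Per3 and Cry1. In KO the groups of Nr1d2 and Arntl overlapped and those of Per3, Cry1 and Cry2 did not. The Cry1 call was lost with the low-pseudogene term (adjusted p = 0.068) and in DESeq2 (adjusted p = 0.065). Doxycycline coincides with the pseudogene difference within WT, so a genotype difference in response and that library difference cannot be told apart. Groups of 3 are too small to search for single outlying libraries.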

How the results depend on the processing

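The numbers of clock genes called with the replicate block were 8, 4, 5, 10 and 8 (Dox in WT, Dox in KO, their difference, KO against WT with DMSO and with Dox), as without it, and the block changed no clock gene call; the numbers share no stated origin. With the low-pseudogene term 5 clock genes and 2850 genes in all were called for Dox in WT and 2 clock genes for Dox in KO. At a fold of at least 2 the clock genes called were 0, 0, 0, 2 and 3 and all genes called 202, 30, 107, 3473 and 3471 in the same order. Leaving out 1 library at a time gave 2 to 4 clock genes for Dox in KO.

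Signs turned where a value lay near 0. For KO against WT with Dox, Cry1 stood at -0.0112 with median-ratio scaling, -0.0133 with the strict filter and -0.0112 in DESeq2. With single libraries left out it ran from -0.0377 to 0.00773, and Cry2 from -0.0126 to 0.0653. For Dox in KO, Clock stood at -0.00948 without TMM, -0.00770 with the low-pseudogene term and -0.000236 in limma-voom, and ran from -0.0193 to 0.0222 with single libraries left out. Nr1d2 stood there at -0.00248 without TMM and Arntl at -0.00209 with the low-pseudogene term, and Dbp ran from -0.0227 to 0.143 with single libraries left out. A called value turned only for Dbp with Dox in WT, to 0.0250 with the low-pseudogene term, and the cause was not tested. The fit of the groups compared alone was not run for the difference, which uses all 4 groups.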
